A study of Mus musculus with 12 samples.

Results

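RNA-seq of non-growing oocytes from mouse ovaries at postnatal day 6 (P6) was used to compare oocytes without Eed with their controls. The 4 libraries described here, of 12 in the series, are 2 controls and 2 conditional knockouts (cKO), and their group was taken from the sample titles. Control oocytes were Eed F/+; Ddx4-Cre, with one floxed and one wild-type allele. The cKO oocytes were Eed F/-; Ddx4-Cre, with one floxed and one null allele. Both genotypes therefore carried the germ-cell driver Ddx4-Cre and a floxed allele, and by genotype the control keeps its wild-type copy of Eed after recombination. Growing oocytes of the same genotypes at postnatal day 7 (P7), again 2 libraries a group, serve only as the comparison stage. The question, as far as the design text states it, is how gene expression differs between PRC2 control and cKO non-growing oocytes. The sources used here do not say how many animals stand behind a library, whether a group's 2 libraries are from different animals, or which exons are floxed. Each p-value therefore reflects the spread between the libraries at hand, which may be technical.

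Polycomb repressive complex 2 (PRC2) methylates histone H3 on lysine 27 and so marks genes that are kept silent. EED binds that mark and is needed for the catalytic subunits EZH1 and EZH2 to work. In the ovary, oocytes of primordial follicles rest in meiotic arrest as non-growing cells until a few are recruited to grow, and growth brings large stores of maternal transcripts and the zona pellucida, the coat of the egg.

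Values are TPM, transcript abundances scaled to one sum in every library, so depth is unknown. Differences are log2 fold changes of TPM + 1, cKO over control, a scale that understates the change of low genes. The deposited table holds 55385 gene models, and 12768 reached 1 TPM in at least 2 of the 4 libraries and were tested. Libraries of one group correlated at r = 0.987 (control) and 0.978 (cKO) across these genes, and libraries of different groups at 0.967 to 0.975, where genes are not independent replicates. The labelled cell type matched its markers: all 16 oocyte markers were tested, and their summed level was 34651 to 35429 TPM in controls and 32505 to 33684 TPM in cKO. A few abundant genes carry that sum: 2 of the 16, Nlrp5 and Zp3, were called lower (limma adjusted p under 0.05), the median change was -0.44 beside -0.10 over all tested genes, and 11 of the 16 had both cKO libraries below both controls, as did 39.9% of all genes. The growth-stage gene Gdf9, an oocyte-secreted growth factor, was at 596 and 637 TPM in the P6 controls and at 3706 and 4019 TPM in the P7 controls. Markers of other ovarian cells were low: granulosa markers (3 of 17 tested) summed to 7.62 to 9.67 TPM in controls and 12.5 to 13.2 TPM in cKO, stromal markers (3 of 14 tested) to 6.52 to 7.87 and 7.95 to 9.01 TPM, endothelial markers (1 of 9) to 7.82 to 9.01 and 5.40 to 13.4 TPM, and immune markers (1 of 13) to 2.03 to 3.41 and 3.44 to 4.55 TPM. Amh, Itgam and Cd3g were listed at 0 in all 4 libraries, and Foxl2, the defining granulosa factor, did not exceed 0.01 TPM. The granulosa sum was higher in both cKO libraries than in both controls, and its part in the results was not tested.

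Loss of Eed changed few genes past the test in non-growing oocytes. At a limma adjusted p under 0.05, 86 genes passed (0.674% of those tested, beside 2296 at an unadjusted p under 0.05), of which 34 were higher in cKO (0.266%) and 52 lower (0.407%). The largest falls among well-expressed genes included Gdpd3, H2bc4 and Eed itself, and maternal genes such as Nlrp5 and Zp3 were among the lower genes. The higher genes included 11 on the X chromosome, led by Rhox and Xlr family members. Across all tested genes the median change was -0.10 and 61.8% of the changes were negative. Trimmed-mean scaling between libraries moved that median to 0.01, so changes are best read relative to it. The split also moved with scaling: quantile normalization gave 60 higher and 47 lower calls, so that 56.1% of calls were higher, against 39.5% without it. Without regard to the test, the cKO libraries lay above both controls for 21.1% of genes and below both for 39.9%, which is the background for each statement on overlap below. Of the calls, 25 lower genes were tested only because both controls reached 1 TPM and 18 higher genes only because both cKO libraries did, so these genes had to differ. The number of calls depended on single libraries: it was 20 without control library 1, 17 without control library 2, 55 without cKO library 1 and 41 without cKO library 2, and 32 without either P7 control, since the P7 libraries share the estimate of the spread. The plot of change by level shows both directions over the range of expression.

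**Figure D1:**
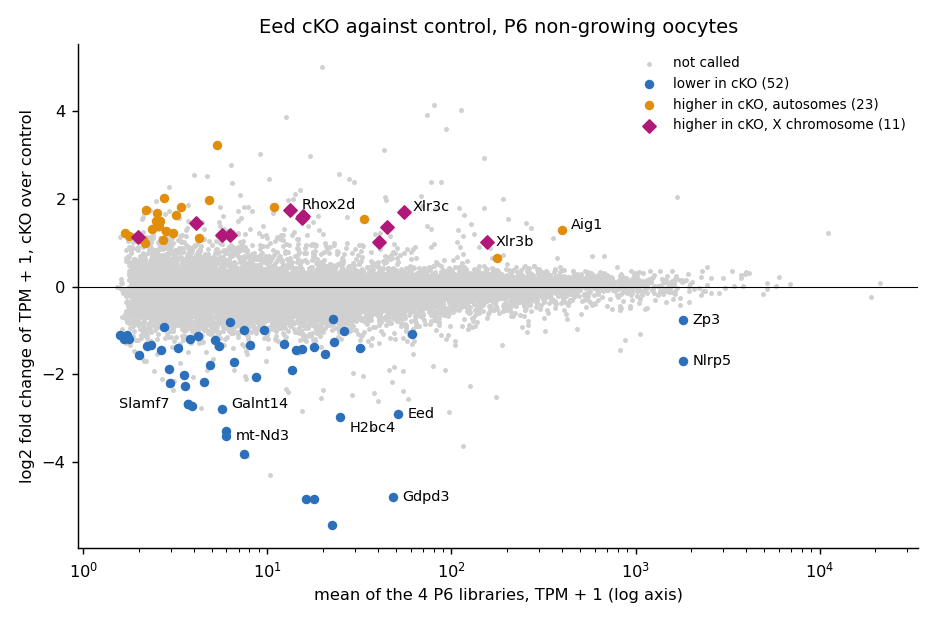
Log2 fold change of TPM + 1 (cKO over control, vertical axis) against the mean of the 4 P6 libraries (TPM + 1, log axis) for 12768 tested genes, with the 34 higher and 52 lower calls coloured. The calls span low and high levels, and named genes such as Gdpd3 (-4.79) and Xlr3c (1.71) are labelled.

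Eed (chromosome 7, 89954654 to 89980983, GRCm38), the targeted gene, was at 88.9 and 90.5 TPM in the controls and at 12.1 and 10.3 TPM in the cKO libraries. Both cKO libraries were far below both controls, and the log2 change was -2.90 with an SE of 0.12 (limma adjusted p = 0.000176), which is 7.45-fold in TPM + 1. In bulk libraries, fewer cells that make a transcript and less of it per cell cannot be told apart, and transcript from undeleted exons adds to the same value. Eed passed in all alternatives run, including the omission of any 1 of the 8 libraries, and its highest limma adjusted p was 0.0121. Among the 12 tested PRC2 subunits Eed was the 1 that passed. The catalytic subunit Ezh2 was at 78.3 and 71.5 TPM in controls and 73.8 and 59.6 TPM in cKO, and the scaffold subunit Suz12 at 14.3 and 13.4 against 13.9 and 12.7 TPM. For both genes the groups overlapped. Jarid2, an accessory subunit, was at 31.2 and 32.8 TPM against 13.9 and 25.1 TPM, with no overlap, but missed the threshold (log2 change -0.74, limma adjusted p = 0.343). None of 29 PRC1 subunits, 28 histone H3 lysine methylation enzymes or 12 DNA methylation genes passed. Their medians were -0.19, -0.16 and -0.29 beside -0.10 for all genes. At an unadjusted limma p under 0.05 were 3, 5 and 2 members, beside 2296 of all 12768 tested genes. A p that misses the threshold does not show that levels were equal.

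A few histone genes were called lower: 2 of 20 tested replication-dependent histone genes passed, beside 0.407% of all genes. H2bc4 (chromosome 13, 23684199 to 23692908), which encodes a histone H2B, was at 42.6 and 43.8 TPM in controls and at 4.15 and 5.13 TPM in cKO. The groups lay well apart, and the gene fell by 2.98 on the log2 scale (SE 0.15, limma adjusted p = 0.000706). H1f2 (chromosome 13, 23738808 to 23740367), a linker histone, was at 10.7 and 15.2 TPM in controls against 1.91 and 2.79 TPM, a change of -2.05 (SE 0.28, limma adjusted p = 0.0405). Across the list, 9 of the 20 had both cKO libraries below both controls (39.9% of all genes did), 4 had both above, and changes ran from -2.98 to 1.19 with a median of -0.23. H4c9, a histone H4 gene of the same list, was at 14.9 and 12.3 TPM in controls and 5.01 and 4.01 TPM in cKO and missed the threshold (limma adjusted p = 0.0682). The histone gene H2aw (chromosome 11, 58954685 to 58956830), which is outside that list and was chosen after its values were seen, was at 43.4 and 46.6 TPM against 15.99 and 17.1 TPM, a change of -1.39 (SE 0.17, limma adjusted p = 0.029). In these 3 called histone genes no cKO library reached a control library. Histone genes have near-identical copies, and the assignment of shared reads was not given in the sources used here. Values of single copies are therefore uncertain. H2bc4 kept its call under every alternative (highest limma adjusted p 0.0226), while H1f2 did not (0.0233 to 0.281), among others when either control library was left out.

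Several genes with known roles outside chromatin were nearly lost. Gdpd3 (chromosome 7, 126766334 to 126775649) encodes a glycerophosphodiester phosphodiesterase that acts on lysophospholipids. It was at 87.5 and 97.1 TPM in controls and at 3.86 and 1.33 TPM in cKO. No control value came near a cKO value, and the change of -4.79 (SE 0.38, limma adjusted p = 0.00526) was 27.7-fold in TPM + 1, the largest among named genes detected in both groups. The call was lost without control library 1 (limma adjusted p = 0.0506) or control library 2 (0.0736) and held in the other alternatives. It was the 1 call among 15 tested glycerophosphodiester and lysophospholipid genes, whose median was -0.24.

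Galnt14 (chromosome 17, 73493228 to 73710453), an enzyme that starts O-linked glycosylation, was at 8.01 and 9.88 TPM in controls against 0.35 and 0.52 TPM in cKO, a change of -2.79 (SE 0.18, limma adjusted p = 0.00261). Slamf7 (chromosome 1, 171632403 to 171653035), a receptor known from immune cells, was at 5.33 and 5.51 TPM in controls and listed at 0 in both cKO libraries (limma adjusted p = 0.00261). The immune markers, 1 of 13 of which was tested, summed to 2.03 to 3.41 TPM in controls and 3.44 to 4.55 TPM in cKO, and their part in this difference was not tested. The non-coding model Gm37787 lies within the span of Slamf7 (171634879 to 171636022). It was at 12.3 and 13.7 TPM in controls and 0 in both cKO libraries. Reads of the pair cannot be told apart unless counting used strand, which the sources do not state. The same limit holds for Galnt14 and the non-coding model D630014O11Rik within its span (73635591 to 73640220). That model, chosen after its values were seen, was at 1.41 and 1.2 TPM in controls and 0 and 0.02 TPM in cKO (limma adjusted p = 0.0227). Mfap2 (chromosome 4, 141010418 to 141015984), which encodes a microfibril protein of the extracellular matrix, was at 19.5 and 21.4 TPM against 4.37 and 5.14 TPM, a change of -1.90 (SE 0.17, limma adjusted p = 0.00958). Gjb2 (chromosome 14, 57098600 to 57104702), the gap junction protein connexin 26, was at 8.33 and 9.77 TPM against 1.89 and 2.26 TPM (log2 change -1.71, SE 0.24, limma adjusted p = 0.0474). In each of these genes both cKO libraries were below both controls, which the naming rule required of all but the non-coding models. Slamf7, Galnt14, Gm37787 and D630014O11Rik were tested only because both controls reached 1 TPM while both cKO libraries did not. They therefore had to differ, and their p-values are no independent support. Slamf7 and Galnt14 kept their calls in every alternative that tested them (highest limma adjusted p 0.0365 and 0.0327), Mfap2 lost it on leaving out either control library (0.0739 without library 1, 0.122 without library 2) and with the replicate block, and Gjb2 lost it in 11 alternatives (up to 0.292).

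**Figure D2:**
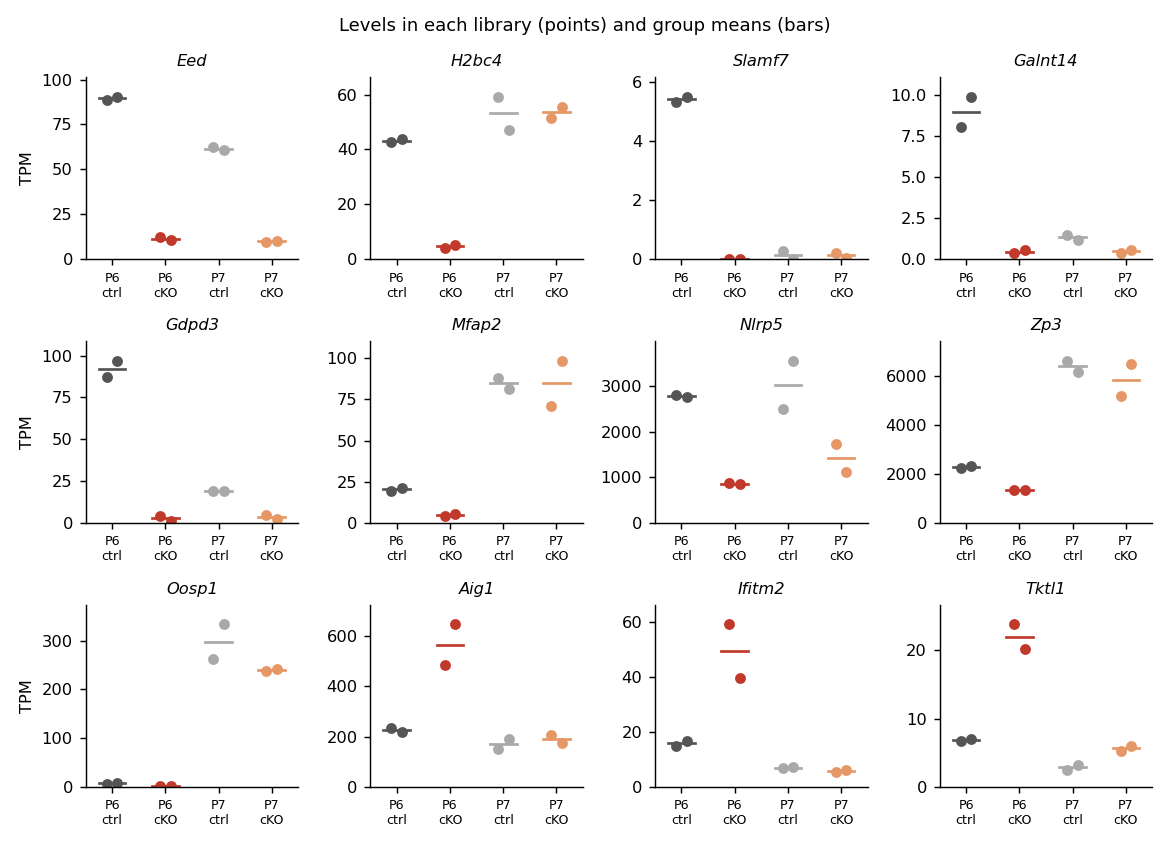
TPM in each library (points) with group means (bars) for genes called at P6, in control and cKO at P6 and P7, each panel on its own linear axis from 0. H2bc4 is low in the P6 cKO alone (4.15 and 5.13 TPM), whereas Eed is low in the cKO at both stages.

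Among 26 tested genes of the egg's maternal store and coat 5 were called lower in the cKO, where 0.407% of all tested genes were, and 0 were called higher. The other members missed the threshold, and Nlrp2 entered the test only because both controls reached 1 TPM, so it had to differ. Nlrp5 (chromosome 7, 23385889 to 23441922), also called MATER, is a core protein of the subcortical maternal complex, which the early embryo needs. It was at 2803 and 2759 TPM in controls and at 879 and 846 TPM in cKO. Both cKO libraries were far below the controls, a change of -1.69 (SE 0.23, limma adjusted p = 0.0406), and in absolute TPM it was the largest fall among the called genes. Zp3 (chromosome 5, 135980099 to 135988624), the zona pellucida protein that binds sperm, was at 2256 and 2316 TPM against 1356 and 1351 TPM, a change of -0.76 (SE 0.11, limma adjusted p = 0.0474). Oosp1 (chromosome 19, 11667460 to 11691150), an oocyte-secreted protein, was at 6.33 and 7.37 TPM against 2.29 and 1.83 TPM (log2 change -1.36, SE 0.15, limma adjusted p = 0.0223). Nlrp4b, an NLR-family gene of oocytes, was at 30.8 and 27.9 TPM against 7.44 and 12.2 TPM, a change of -1.52 (limma adjusted p = 0.0490). Nlrp2, a further complex member, was at 2.29 and 2.05 TPM against 0.15 and 0.35 TPM (limma adjusted p = 0.0429), and it was chosen after its values were seen. In Nlrp5, Zp3, Oosp1 and Nlrp4b, which were tested through both P6 groups, the groups did not overlap. Nlrp5 and Nlrp4b were also named among the largest falls, a rule that asked for non-overlap.

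By list, 9 of 10 tested subcortical maternal complex genes had both cKO libraries below both controls, with a median of -0.98 and calls for Nlrp5 and Nlrp2. Their summed level was 7750 to 7884 TPM in controls and 3555 to 4237 TPM in cKO. The zona pellucida and secreted factor list gave 9 of 10, 2 calls and a median of -0.60, and the oocyte Nlrp list 6 of 6, 1 call and a median of -0.80. The median over all genes was -0.10, and 39.9% of them had this non-overlap. Members that missed the threshold included Khdc3 (270.5 and 142 TPM in controls, 26 and 62.2 TPM in cKO, limma adjusted p = 0.093), Padi6, a deiminase of the oocyte lattices (1357 and 1509 against 573 and 801 TPM, limma adjusted p = 0.130), and Tle6 (308 and 363 against 161 and 204 TPM, limma adjusted p = 0.188). Khdc1b was at 1170.0 and 1252 TPM against 413 and 666 TPM (limma adjusted p = 0.0608), and Gdf9 in cKO was at 377 and 420 TPM (limma adjusted p = 0.0943). Nlrp4f, also of the complex, had higher cKO values, 753 and 813 TPM against 701 and 651 TPM.

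The 2 cKO libraries were unequal for these genes. Library 1 was below library 2 for 17 of the 26 members (65.4%, beside 58.6% of all tested genes), and library 2 exceeded library 1 by a median of 0.28 on the log2 scale, against 0.06 over all genes and 0.03 between the controls for the same members. The part of this spread in the results was not tested. With trimmed-mean scaling the limma adjusted p was 0.105 for Nlrp5, 0.108 for Zp3 and 0.0529 for both Oosp1 and Nlrp4b, and over all alternatives it ran from 0.00332 to 0.281, 0.00827 to 0.292, 0.0154 to 0.187 and 0.0395 to 0.305 respectively. No alternative turned the direction of a called member.

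**Figure D3:**
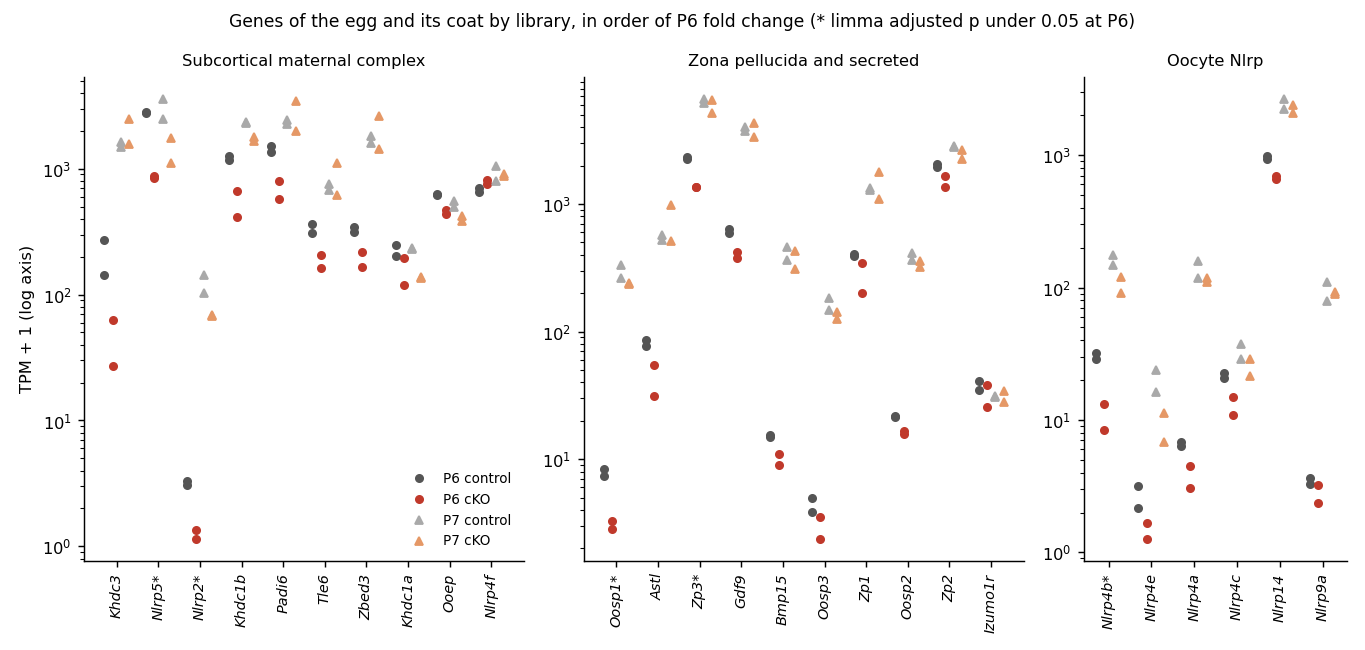
TPM + 1 (log axis) in each P6 (circles) and P7 (triangles) library, control grey and cKO red or orange, for the tested members of the subcortical maternal complex, zona pellucida and secreted factor, and oocyte Nlrp lists, in order of P6 fold change, with an asterisk where the limma adjusted p is under 0.05. At P6 both controls lie above both cKO libraries for 9 of 10, 9 of 10 and 6 of 6 members, and Nlrp4f is the exception in the complex.

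The higher genes included a group on the X chromosome: 11 of 34 (32.4%) were X-linked, whereas 3.77% of tested genes were, and 0 of the 52 lower genes were X-linked. The median change over the 481 tested X-linked genes was 0.04. The Xlr and Rhox genes are multicopy X-linked clusters expressed in germ cells, and Rhox genes encode homeobox proteins of reproductive tissues. The windows upstream of their RefSeq starts are shown for 2 called members of each family because the paralogs resemble each other closely, which bears on how reads are assigned, and because they hold CCAAT motifs. Sequences are from RefSeq (GRCm38.p6), read 5' to 3' on the strand of the gene, with CCAAT, or its reverse complement ATTGG, in capitals.
Xlr3b promoter, chrX:73191929-73192178, plus strand: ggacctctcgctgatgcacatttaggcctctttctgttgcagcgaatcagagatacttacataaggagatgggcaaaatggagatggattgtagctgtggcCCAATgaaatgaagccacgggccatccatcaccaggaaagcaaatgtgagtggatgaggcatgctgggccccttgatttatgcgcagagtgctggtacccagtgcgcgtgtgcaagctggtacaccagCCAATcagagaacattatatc
Xlr3c promoter, chrX:73265391-73265640, minus strand: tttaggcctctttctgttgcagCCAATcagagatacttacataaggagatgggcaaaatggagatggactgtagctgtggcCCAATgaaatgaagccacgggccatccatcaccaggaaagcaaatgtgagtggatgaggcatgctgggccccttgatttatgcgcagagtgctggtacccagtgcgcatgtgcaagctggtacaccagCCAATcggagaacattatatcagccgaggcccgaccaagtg
Rhox2b promoter, chrX:37411855-37412066, plus strand: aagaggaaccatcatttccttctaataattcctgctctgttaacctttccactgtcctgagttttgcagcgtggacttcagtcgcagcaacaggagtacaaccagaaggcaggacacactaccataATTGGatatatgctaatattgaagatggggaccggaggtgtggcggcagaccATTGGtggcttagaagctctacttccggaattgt
Rhox2d promoter, chrX:37493160-37493409, plus strand: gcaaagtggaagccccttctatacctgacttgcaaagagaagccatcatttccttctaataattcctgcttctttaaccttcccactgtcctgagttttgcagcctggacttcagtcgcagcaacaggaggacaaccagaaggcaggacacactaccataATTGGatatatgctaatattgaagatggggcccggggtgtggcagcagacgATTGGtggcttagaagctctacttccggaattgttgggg
The Rhox2b window stops where the deposited gene model begins. The 250-base windows of Xlr3b and Xlr3c were 98.3% identical over 230 aligned positions and those of Rhox2b and Rhox2d 95.0% over 218. CCAAT on either strand was found in 9 of the 11 X-linked higher genes (81.8%), in 41.9% of 9232 tested genes with a RefSeq window and in 49.6% of 363 tested X-linked genes. Tktl1 and Nxf2 had no match. Further motifs were searched on both strands. TCCCGC was found in 1 of the 11 genes and in 33.1% of tested genes. The E-box CACGTG was found in 2 of the 11 and in 10.1% of tested genes, and the motif TATAAA in 1 and in 8.17%. Because paralogs share sequence, these genes are not independent cases, and levels of single copies in these families, as in the Nlrp genes, are uncertain. A match is a run of letters in the window. For Rhox5 the RefSeq start in the table lies 50234 bases before the deposited model, so its window is not shown. Rhox5 is nonetheless counted among the 9 genes with CCAAT.

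Xlr3b (X chromosome, 73192207 to 73202930) was at 101 and 101 TPM in controls and at 213 and 202 TPM in cKO. Both cKO libraries were above both controls, a change of 1.03 (SE 0.09, limma adjusted p = 0.00958), or 2.04-fold in TPM + 1. Xlr3c (73254540 to 73265390) was at 25.5 and 23.9 TPM against 95.2 and 72.5 TPM, a change of 1.71 (SE 0.16, limma adjusted p = 0.0123). Without control library 1 the limma adjusted p was 0.108 for Xlr3b and 0.098 for Xlr3c, and without control library 2 it was 0.131 and 0.132. Those were the 2 calls among 10 tested Xlr members, of 12 in the table. Xlr itself, the founding member, was at 22.6 and 21.9 TPM against 56.8 and 49.0 TPM and missed the threshold (log2 change 1.21, limma adjusted p = 0.055). All 10 tested members had both cKO libraries above both controls, where 21.1% of all genes did, and their changes ran from 0.35 to 1.71 with a median of 0.77. The list summed to 1364 to 1389 TPM in controls and 1960 to 2139 TPM in cKO, and cKO library 1 exceeded library 2 for each of the 10.

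Rhox2d (X chromosome, 37493428 to 37497623) was at 4.56 and 5.62 TPM in controls and 17.8 and 21.2 TPM in cKO, a change of 1.75 (SE 0.18, limma adjusted p = 0.0171). Rhox2b (37412067 to 37416806) was at 26.5 and 21.6 TPM against 62.0 and 64.8 TPM, a change of 1.37 (SE 0.16, limma adjusted p = 0.0262). Rhox5 (37804842 to 37808876), the founding Rhox gene, was at 7.09 and 6.32 TPM against 19.6 and 25.7 TPM, a change of 1.61 (SE 0.21, limma adjusted p = 0.0366). The cKO libraries were above the controls in all 3, as the rule for the largest rises asked. They were the calls among 18 tested Rhox members of 32 in the table. Of the 18, 14 had both cKO libraries above both controls, and the median change was 0.79. The paralog Rhox2a, at 70.1 and 70.8 TPM against 135 and 152 TPM, missed the threshold (limma adjusted p = 0.076). The cluster did not move as one: Rhox1, its most abundant member, was at 159 and 168 TPM in controls and 146 and 167 TPM in cKO, and Rhox10 at 6.56 and 3.63 TPM against 4.44 and 4.35 TPM.

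**Figure D4:**
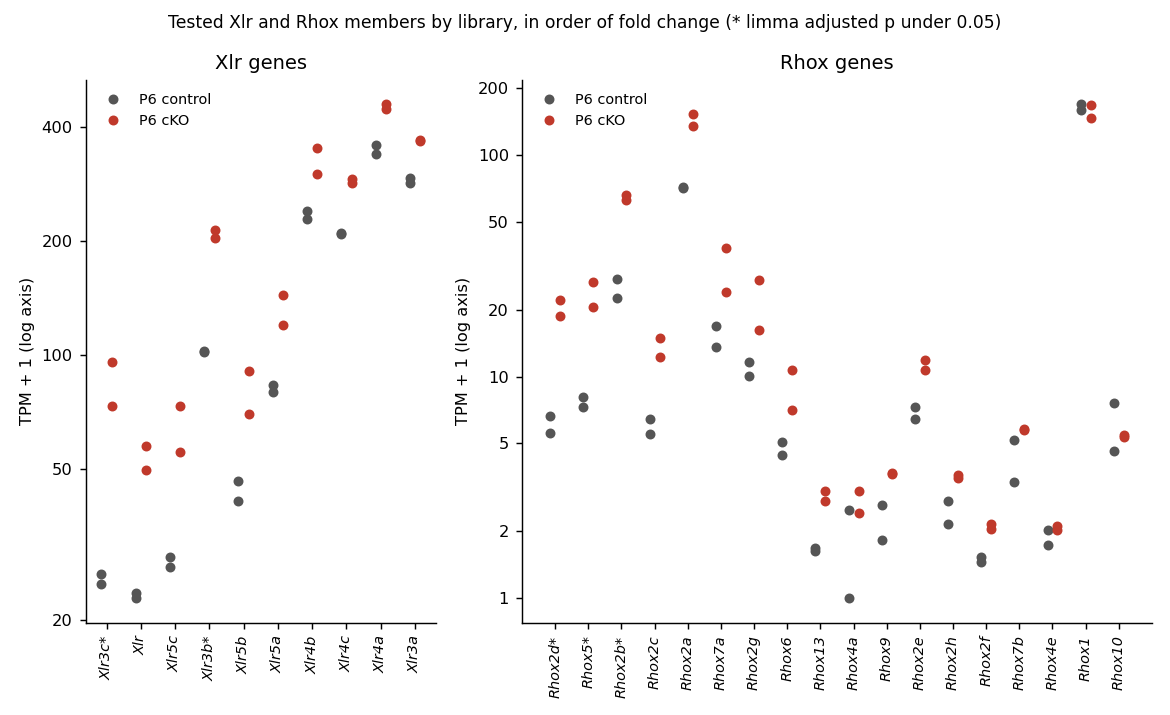
TPM + 1 (log axis) in each P6 library for the 10 tested Xlr and 18 tested Rhox members in order of fold change, with an asterisk where the limma adjusted p is under 0.05. All Xlr members lie higher in cKO, whereas the 2 groups overlap for Rhox1 and Rhox10 among others.

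Other X-linked genes that rose were single-copy genes or members of other germline families. Tktl1 (74177259 to 74208500), a transketolase-like enzyme, was at 6.66 and 6.93 TPM in controls and 23.8 and 20.2 TPM in cKO, a change of 1.56 (SE 0.17, limma adjusted p = 0.0223). Nup62cl, a nucleoporin-like gene, was at 27.01 and 24.3 TPM against 53.4 and 52.4 TPM (log2 change 1.02, limma adjusted p = 0.0405). Nxf2, a germline mRNA export factor, was at 2.67 and 3.01 TPM against 7.01 and 8.29 TPM (log2 change 1.17, limma adjusted p = 0.0490), and Ctag2l1, related to cancer-testis antigens, at 1.49 and 0.94 TPM against 5.10 and 4.91 TPM (log2 change 1.45, limma adjusted p = 0.0490). Both cKO libraries were above both controls in each, as the naming rule required. Fthl17f, tested only through cKO, and Gm7903 complete the 11 and were chosen after their values were seen. The X chromosome as a whole took 3.54% ± 0.0044 of all TPM in controls and 3.79% ± 0.098 in cKO (SD, n = 2). None of 6 tested Mage genes, a family with many X-linked germline members, passed (median -0.29). Of the 6, 2 had an unadjusted limma p under 0.05, beside 2296 of all 12768 tested genes. All 11 stayed positive in each alternative that tested them, 7 of them under a 5 TPM minimum, but calls depended on the libraries. Of the 11, 0 stayed called without control library 1 and 0 without control library 2. Without cKO library 1 there were 3, without cKO library 2 there were 2, and 4 without either P7 control. With the 4 P6 libraries fitted alone 5 of the 11 stayed called. Without control library 1 an X-linked gene outside the 11 was called higher. Trimmed-mean scaling left 7 X-linked genes called.

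Of the 23 higher genes on autosomes, the naming rule took Aig1 and Ifitm2. Aig1 (chromosome 10, 13647054 to 13868980), a hydrolase of fatty acid esters of hydroxy fatty acids, was at 235 and 217 TPM in controls and 485 and 647 TPM in cKO, a rise of 2.47-fold in TPM + 1 (limma adjusted p = 0.0379). Ifitm2 (chromosome 7, 140954837 to 140955987), an interferon-induced membrane protein, was at 14.99 and 16.9 TPM against 59.2 and 39.7 TPM, a change of 1.55 (SE 0.20, limma adjusted p = 0.0370). The groups did not overlap in either gene, as the rule for the largest rises asked, although the cKO libraries differed from each other. Ifitm2 was the 1 call among 7 tested interferon-related genes (median 0.18), and its neighbour in the family, Ifitm3, was at 7.86 and 6.6 TPM against 11.4 and 13.8 TPM without passing (limma adjusted p = 0.139). Ajuba, a LIM-domain scaffold protein, at 0.25 and 0.33 TPM against 2.38 and 2.98 TPM (limma adjusted p = 0.0169), and Gfra2, a receptor for neurturin, at 0.51 and 0.55 TPM against 2.92 and 4.84 TPM (limma adjusted p = 0.0405), were chosen after their values were seen and entered the test only through cKO. Aig1 and Ifitm2 lost their calls in 12 and 9 alternatives, with limma adjusted p up to 0.281 and 0.241.

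Genes that PRC2 is best known to silence gave no call. All 39 Hox genes were below the level for testing, 22 of them listed at 0 in the 4 libraries, and the list summed to 3.06 to 4.05 TPM in controls and 3.24 to 3.30 TPM in cKO. Of 96 developmental transcription factors, 6 were tested and 0 passed, with a median of 0.21, although 4 of the 6 had both cKO libraries above both controls, beside 21.1% of all genes. The homeobox gene Meis2, at 5.13 and 4.84 TPM against 7.73 and 8.11 TPM, had the largest rise among the 6 (limma adjusted p = 0.0834). Changes of the 6 ran from -0.92 to 0.58. The sums of all 96 were 27.3 to 28.7 and 29.0 to 32.3 TPM. None of 12 tested noncanonical imprinted genes, whose maternal silencing is known to rest on H3K27 methylation from the oocyte, passed, and their median was 0.03. Sfmbt2, one of them, was at 0.98 and 0.93 TPM in controls and 1.04 and 1.07 TPM in cKO. None of 23 tested canonical imprinted genes passed (median -0.13, changes from -0.93 to 2.37). At an unadjusted p under 0.05, limma gave 2 of the 6 developmental factors, 1 higher and 1 lower. It gave 1 of the 12 noncanonical imprinted genes, which was lower, and 9 of the 23 canonical ones, 3 higher and 6 lower. Over all tested genes it gave 2296 of 12768.

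Primordial follicle and meiotic gene lists gave no call. Counts at an unadjusted limma p under 0.05 are to be read beside 2296 of all 12768 tested genes. None of 20 primordial follicle oocyte factors passed (median -0.15, 7 at an unadjusted p under 0.05), and Figla, the transcription factor of oocyte differentiation, was at 966 and 992 TPM in controls and 1281 and 1168 TPM in cKO. Among 36 tested meiotic prophase genes 0 passed, although 20 had both cKO libraries above both controls (background 21.1%) and 14 had an unadjusted p under 0.05, and the median was 0.21. Spata22, a meiotic recombination factor, was at 7.03 and 9.63 TPM against 20.6 and 16.8 TPM (limma adjusted p = 0.105), and Hormad1, an axis protein, at 20.9 and 20.3 TPM against 41.1 and 39.8 TPM (limma adjusted p = 0.0758). The piRNA-binding protein gene Piwil4 was at 7.08 and 7.44 TPM against 19.7 and 17.7 TPM (limma adjusted p = 0.0613), and 0 of 21 tested piRNA pathway genes passed (4 at an unadjusted p under 0.05). None of 17 tested E2F6 and PCGF6 germline targets passed (median 0.19, 11 higher without overlap, 6 at an unadjusted p under 0.05), nor did any of 7 CDK inhibitors (3 unadjusted) or 11 immediate-early and heat shock genes (0 unadjusted). The last list had cKO library 1 below library 2 for all 11 members.

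The same loss was then compared with P7 growing oocytes, whose libraries are separate but share the estimate of the spread with P6. At P7, 11 of the same 12768 genes passed (0.0862%), 7 higher and 4 lower, and the median change was 0.08. Eed was at 62.3 and 60.5 TPM in controls and at 9.64 and 10.1 TPM in cKO at P7, a change of -2.52 (limma adjusted p = 0.00138). Called in the same direction at both stages were Eed, Xlr3b (28.0 and 31.5 against 55.7 and 57.6 TPM at P7, limma adjusted p = 0.0428), Spata21 (P6 2.25 and 2.44 against 0.26 and 0.41 TPM, P7 21.1 and 22.2 against 3.69 and 4.74 TPM) and the predicted gene Gm13103. Spata21 and Gm13103 were chosen after their values were seen, and Spata21 was tested only through the P6 controls. Gdpd3 was at 19.3 and 19.03 TPM against 4.51 and 2.10 TPM at P7, which missed the threshold (limma adjusted p = 0.161).

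All 11 X-linked higher genes had positive changes at P7, and 10 had both cKO libraries above both controls there, where 61.7% of all genes were positive and 23.3% had that non-overlap. Their P7 median was 0.80. Close P7 replicates favour both a P6 call and P7 non-overlap, so the share over all genes is not a like background. Of all 34 higher genes 50% had that non-overlap, and 44.2% of the 52 lower genes had the reverse, beside 12.9% of all genes. Of the 23 autosomal higher genes 14 were positive at P7. Of the 52 lower genes, 31 were negative at P7 (59.6%, beside 37.8% of all genes). In P7 controls 15 of the 52 lower genes were at 100 TPM or more (28.8%), as were 10.6% of all tested genes. Under 1 TPM there were 16 of the 52 (30.8%), beside 16.3% of all tested genes. The median P7 control level was 8.65 TPM for the 52 and 7.47 TPM for all tested genes. The maternal lists lay nearer to 0 at P7, with medians of -0.22 for the subcortical maternal complex, -0.15 for the zona and secreted factors and -0.33 for the oocyte Nlrp genes, beside 0.08 for all genes. Nlrp5 was at 2502 and 3571 TPM in P7 controls and 1742 and 1110 TPM in P7 cKO (limma adjusted p = 0.279).

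The effect of Eed loss differed between the stages for 8 genes (0.0627% of 12768; 2121 at an unadjusted p under 0.05) by the limma interaction contrast, and in 7 of them the effect was more positive at P7. Of the 8, H2bc4 and Ccdc69 were tested through both P6 groups. The others (Slamf7, mt-Nd3, Gm25872, Gm25959, Gm37787 and Gm22692) reached 1 TPM in both libraries of a single P6 group, so their P6 effect was large by selection, and Slamf7, Gm37787 and Gm22692 were at or near 0 in all P7 libraries. For those last 3 the contrast largely restates the filter. H2bc4 was at 59.3 and 47.2 TPM in P7 controls and at 51.4 and 55.7 TPM in P7 cKO, so the groups overlapped there, and the effects differed by 2.99 (SE 0.21, limma adjusted p = 0.0097). Slamf7 was at 0.27 and 0 TPM in P7 controls and 0.21 and 0.04 TPM in P7 cKO (limma adjusted p = 0.0311). Ccdc69, chosen after its values were seen, was at 17.03 and 16.2 TPM against 6.09 and 6.03 TPM at P6 and at 604 and 655 TPM against 604 and 666 TPM at P7, a difference of effects of 1.33 (SE 0.13, limma adjusted p = 0.0374). The mitochondrial gene mt-Nd3, a subunit of respiratory complex I, was at 6.93 and 13.02 TPM in P6 controls and listed at 0 in both P6 cKO libraries, and at P7 it was listed at 0 in both controls and at 6.93 and 14.7 TPM in cKO (limma adjusted p = 0.012). All mitochondrial models took 1.87 to 1.92% of TPM in P6 controls and 1.85 to 2.03% in P6 cKO. Of the 52 genes lower at P6, 7 passed this contrast, and Mfap2, Zp3 and Gdpd3 were not among them. The number of interaction calls was 1147 without P7 cKO library 1, 4 without P7 control library 1 and 5 without P7 control library 2.

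**Figure D5:**
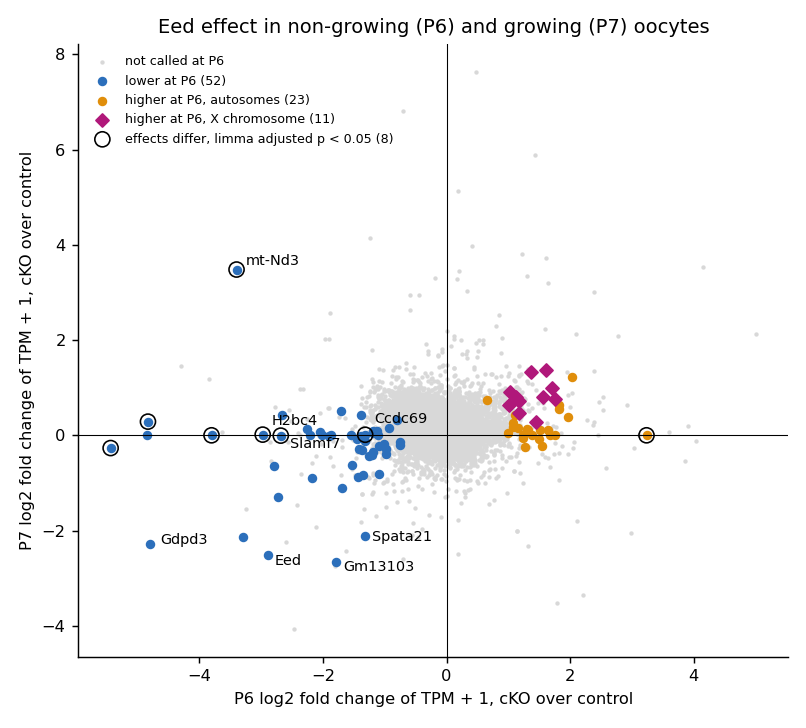
Log2 fold change of TPM + 1 (cKO over control) at P7 (vertical axis) against P6 (horizontal axis) for tested genes, with P6 calls coloured. H2bc4 lies at -2.98 on the P6 axis and near 0 on the P7 axis, whereas Eed is low on both, and the X-linked calls are positive on both.

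By class, 19 of the 34 higher genes and 33 of the 52 lower genes were protein-coding, and the tested genes were 84.7% protein-coding. Pseudogenes made up 7 of the higher and 10 of the lower calls against 5.26% of tested genes, and their reads can come from near-identical parents. Chromosome 7 held 9 of the lower genes (17.3%, beside 7.21% of tested genes), among them Eed, Gdpd3, Nlrp5, Nlrp4b, Nlrp2 and Obox5. Chromosome 1 held 4 (7.69%, beside 5.78%): Klhdc9, Usf1, Slamf7 and Gm37787, all between positions 171358446 and 171653035. Klhdc9, chosen after its values were seen, was at 4.15 and 5.44 TPM in controls and 1.6 and 1.68 TPM in cKO (limma adjusted p = 0.0493). Whether these 4 neighbours changed independently was not tested. Obox5, an oocyte homeobox gene chosen after its values were seen, was at 1.31 and 1.40 TPM in P6 controls, 0.11 and 0.10 TPM in P6 cKO and 223 and 226 TPM in P7 controls (limma adjusted p = 0.0223 at P6). Obox5 and Trav6d-3 were tested only through the controls. The T-cell receptor gene segment Trav6d-3 was at 4.48 and 6.35 TPM in controls and listed at 0 in both cKO libraries (limma adjusted p = 0.0197), while Cd3g, a defining T-cell marker, was listed at 0 in all 4.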

How the data were processed

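RNA-seq was made from P6 non-growing oocytes of 2 Eed control and 2 cKO libraries, and the 4 P7 growing-oocyte libraries of the same table entered the fit. Per the labels' protocols, the RNeasy Plus Micro kit was used for RNA, the NEBNext Single Cell/Low Input kit for libraries and an Illumina HiSeq for paired reads. The TPM values were deposited by the authors in one table of 8 libraries. The submitters' processing notes name RSEM 1.3.3, Subread 2.0.3, Trim Galore 0.6.10, SAMtools and HISAT2, and the builds GRCm38 and mm10. The tool behind the TPM, the use of strand and the handling of multiply matching reads were not given in the sources used here. A table of 4 PRC1 libraries was not used.

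Models at 1 TPM or more in at least 2 of the 4 P6 libraries were tested. The log2(TPM + 1) values entered limma 3.58.1 under R 4.3.3 (eBayes with trend after lmFit and contrasts.fit), all 4 groups in one fit and no covariate, two-sided, and Benjamini-Hochberg adjustment over all genes tested at a threshold of 0.05. The interaction was the P7 effect minus the P6 effect in that fit. The fit was run on simulated data in which the spread was shuffled among genes and only better expressed genes were changed. That run therefore does not bear on calls near 1 TPM. Replicates were not paired: the deviations of same-numbered libraries correlated at 0.0737 at P6. Gene lists are described by counts and medians, with no list test. Gene classes came from GENCODE vM21, whose coordinates were identical for 12644 of the 12768 tested genes. Promoter windows (250 bases before the start) came from RefSeq and were searched in Python 3.11.15 with pandas 2.3.3 and numpy 2.4.6, and figures were drawn with matplotlib 3.10.9.

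Named genes were Eed, Gdpd3, H2bc4 and Xlr3b, the 12 largest rises and 12 largest falls that passed, had non-overlapping groups and averaged 5 TPM or more in the higher one (predicted models and pseudogenes left out), and per list the 3 or fewer members of smallest p at that level. Only 11 rises were eligible. Non-overlap in genes named as largest rises or falls was set by this rule. Genes outside this rule are also named. For some the text says that they were chosen after their values were seen. The others were not picked by the rule either, among them Ezh2, Suz12, Khdc3, Padi6, Tle6, Nlrp4f, Rhox1, Rhox2a, Rhox10, Sfmbt2 and Gm37787. The members and lists were chosen with earlier results of these data known. Settings varied one at a time were the filter, the pseudocount, scaling, the variance model, the libraries fitted, a replicate block, a 2-fold minimum and each library left out. No per-sample column other than those of the 8 libraries was used.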

Additional observations from a re-analysis of the deposited data

Results flagged for a closer look

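Each of the following 8 genes was set apart because the effect of Eed loss at P7 differed from that at P6 by the limma interaction test, and the value given is the P7 effect minus the P6 effect on the log2 scale. The short RNA model Gm25872 differed by 5.17 (limma adjusted p = 0.00125), being at 37.1 and 48.2 TPM in P6 controls and listed at 0 in P6 cKO, and at 1134 and 1109 TPM against 813 and 1066 TPM at P7. The non-coding model Gm37787 differed by 3.80 (limma adjusted p = 0.00191) and was listed at 0 in all P7 libraries. H2bc4 differed by 2.99, mt-Nd3 by 6.88, Slamf7 by 2.68 and Ccdc69 by 1.33. The short RNA model Gm25959 differed by 5.12 (limma adjusted p = 0.0374), at 43.8 and 17.1 TPM in P6 controls, 0 in P6 cKO, and 963 and 1035 TPM against 1180.5 and 1259 TPM at P7. The short RNA model Gm22692 differed by -3.24 (limma adjusted p = 0.0322), listed at 0 in P6 controls, at 6.57 and 10.7 TPM in P6 cKO and at 0 in all P7 libraries. Of the 8, H2bc4 and Ccdc69 were tested through both P6 groups, and the others through a single one, so their difference is in part set by the filter. Fold changes against groups listed at 0 depend on the pseudocount and are no measure of size.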

How the results depend on the processing

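The number of genes that passed at P6 (86, 34 higher and 52 lower) was 49 with a pseudocount of 0.1, 138 with 5, 44 with the filter over 8 libraries, 20 with a mean of at least 5 TPM, 33 with trimmed-mean scaling and 56 with the 4 P6 libraries fitted alone. It was within 1.5 times the main count with no filter (91), quantile normalization (107, 60 higher and 47 lower), eBayes without trend (74), robust eBayes (94) and a 2-fold minimum (78). Leaving out one library gave 17 to 95. Of the 44 calls under the 8-library filter, 44 were among the 86, as were 31 of 33 with trimmed-mean scaling. X-linked higher calls (11) were 5 with a pseudocount of 0.1, 21 with 5, 5 with a mean of at least 5 TPM, 7 with trimmed-mean scaling and 0 to 11 with one library left out. Interaction calls (8) were 5 with a pseudocount of 5, 21 with no filter, 14 with the 8-library filter, 5 with quantile normalization, 5 with trimmed-mean scaling and 4 to 1147 with one library left out. Same-numbered libraries share only a number (correlation of deviations 0.0737 at P6 and 0.0299 at P7). With a replicate block 12 genes passed at P6, 0 of them X-linked higher genes, and 2 passed for the interaction. Of the 25 named genes called, 4 (Eed, H2bc4, Slamf7 and Galnt14) passed with every library left out in turn, Slamf7 and Galnt14 being tested only through the controls, and 25 kept their direction in every setting that tested them. Directions reversed for 3 genes that did not pass: Rhox1 (0.046 with trimmed-mean scaling, -0.167 to 0.026 with one library left out), Pecam1 (-0.927 to 0.306) and Slc38a1 (-0.279 to 0.026), the positive ends without cKO P6 library 1. The medians of the CDK inhibitor and piRNA lists change sign with scaling. The causes of these shifts were not tested. TPM keep no depth, so counting error is unknown.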

Other observations

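Further lower genes, all chosen after their values were seen, included cytoskeletal and lipid genes. Arpc1b, a subunit of the actin-nucleating Arp2/3 complex, was at 83.8 and 81.0 TPM in controls and 34.6 and 42.2 TPM in cKO (limma adjusted p = 0.0239). Triobp, which binds actin bundles, was at 25.5 and 24.2 TPM against 8.75 and 9.14 TPM (limma adjusted p = 0.0223), and Bscl2, the lipid droplet protein seipin, at 34.3 and 33.8 TPM against 14.2 and 18.7 TPM (limma adjusted p = 0.0370). The transcription factor gene Usf1, near Slamf7 on chromosome 1, was at 18.3 and 21.8 TPM against 6.47 and 6.98 TPM (limma adjusted p = 0.0474). In each of these 4 genes both cKO libraries were below both controls. The model of Bscl2 overlaps that of Gng3, which was also called lower (limma adjusted p = 0.0490). Gng3 was at 9.92 and 7.91 TPM against 4.42 and 3.58 TPM, and whether counting used strand is not stated. The F-box gene Fbxw28 was at 6.94 and 6.91 TPM against 3.33 and 3.77 TPM at P6 (limma adjusted p = 0.0490) and at 971 and 1205 TPM against 1335 and 1364 TPM at P7.

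In absolute TPM the largest shift at P6 was in the pseudogene model Gm1821, which did not pass: 6699 and 6177 TPM in controls and 21000.0 and 10749 TPM in cKO. The 2 cKO libraries lay far apart for it, although both were above both controls. Ubb, a ubiquitin gene, was at 20308 and 20491 TPM in controls and at 13867 and 21658 TPM in cKO, so its groups overlapped. In cKO, library 1 was above library 2 for Gm1821 and below it for Ubb. Whether these models share reads was not tested. Gm1821 and Ubb were chosen after their values were seen.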
